A study of Mus musculus with 4 samples.

Results

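The insulin-like growth factor (IGF) genes and H19 were followed in mouse inner ear organoids, which are grown from embryonic stem cells and contain otic epithelium and hair cells beside many other cell types. The 10 genes were the long noncoding RNA H19, the ligands Igf2 and Igf1, the receptors Igf2r and Igf1r, and the binding proteins Igfbp2, Igfbp3, Igfbp4, Igfbp5 and Igfbp7, of 27998 genes counted. They were taken by symbol, and they were chosen with their levels in these data known, so the levels and ratios below describe these libraries and carry no test. Wild-type (WT) organoids came from the embryonic stem cell line R1/E of 129X1x129S1 background, and knockout (KO) organoids from R1/E-Tmprss3KO-GFPKI, a derivative in which Tmprss3, a transmembrane serine protease gene whose loss causes deafness, is knocked out and GFP knocked in, as its name says. Organoids of each line were dissociated at day 25 and at day 35 of culture and profiled by droplet single-cell RNA sequencing with 3′ counting of unique molecular identifiers (UMIs). There was 1 library per line and day, called WT25, KO25, WT35 and KO35 by line and day, and every difference between WT and KO is a difference between these lines and libraries. The labels do not say how many organoids or clones stand behind a library.

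IGF1 and IGF2 are secreted growth factors that signal through the IGF1 receptor, while the IGF2 receptor takes IGF2 into the cell for destruction and so lowers its amount outside. In mouse, H19 and Igf2 are neighbours that share enhancers and are imprinted in opposite ways: H19 is transcribed from the maternal chromosome and Igf2 from the paternal one, under an imprinting control region methylated on the paternal copy. Igf2r is also imprinted and is transcribed from the maternal chromosome, and the antisense RNA Airn silences the paternal copy. The binding proteins hold IGFs outside cells and set how much ligand reaches the receptors, and IGF1 is known as a survival and growth signal for the developing cochlea.

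On GRCm38, H19 lies at chr7:142575529-142578143 and Igf2 at chr7:142650766-142666816, both on the minus strand and 72.6 kb apart, and Igf2r lies at chr17:12682406-12769664 on the minus strand. The other ligand and receptor lie at chr10:87858265-87937042 (Igf1) and chr7:67952827-68233668 (Igf1r), both on the plus strand. Igfbp2 (chr1:72824503-72852474, plus) and Igfbp5 (chr1:72857932-72874884, minus) are neighbours, and Igfbp3 (chr11:7206086-7213923, minus), Igfbp4 (chr11:99041244-99054392, plus) and Igfbp7 (chr5:77349240-77408041, minus) lie elsewhere. H19 is annotated as a long intergenic noncoding RNA and the other 9 genes as protein coding. The RNAs of H19 and Igf2 host microRNAs, whose mature RefSeq sequences (GRCm38.p6) are shown because, of the 10 genes, these 2 carried the largest differences between the lines. Capitals mark the seed, bases 2 to 8, which pairs with targets, and the 4 seeds differ. The mature microRNAs themselves were not measured.
mmu-miR-675-5p: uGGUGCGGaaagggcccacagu
mmu-miR-675-3p: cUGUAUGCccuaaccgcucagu
mmu-miR-483-5p: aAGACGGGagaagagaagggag
mmu-miR-483-3p: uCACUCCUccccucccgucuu
The miR-675 arms lie within H19 at chr7:142577112-142577133 (5p) and chr7:142577078-142577099 (3p), and the miR-483 arms within Igf2 at chr7:142654968-142654989 (5p) and chr7:142654932-142654952 (3p), all on the minus strand.

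Promoter windows of 300 bases, from 250 before to 50 after an annotated start, were matched in RefSeq for 9 of the 10 genes. The windows of Igf2 and Igf2r are shown because these were the members at least 2-fold lower in KO on both days. Of the 4 Igf2 windows the one richest in CG is given, chr7:142658755-142659054 on the minus strand, with the Igf2r window, chr17:12769657-12769956 on the minus strand, and capitals mark CG dinucleotides, the site of DNA methylation.
Igf2: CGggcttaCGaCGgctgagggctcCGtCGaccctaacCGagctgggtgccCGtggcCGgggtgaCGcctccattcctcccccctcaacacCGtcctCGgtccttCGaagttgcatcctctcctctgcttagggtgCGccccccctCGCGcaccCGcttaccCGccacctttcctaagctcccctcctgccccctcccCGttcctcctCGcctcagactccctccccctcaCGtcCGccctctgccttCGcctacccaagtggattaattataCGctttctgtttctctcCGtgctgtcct
Igf2r: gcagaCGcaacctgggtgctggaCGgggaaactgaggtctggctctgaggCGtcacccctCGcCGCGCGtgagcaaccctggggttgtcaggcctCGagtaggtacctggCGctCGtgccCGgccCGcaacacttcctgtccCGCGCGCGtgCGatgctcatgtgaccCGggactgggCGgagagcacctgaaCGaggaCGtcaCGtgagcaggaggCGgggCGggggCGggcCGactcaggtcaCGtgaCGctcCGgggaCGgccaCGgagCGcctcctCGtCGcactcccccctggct
The other Igf2 windows hold 2, 14 and 7 CG, so the CG count of the one shown follows from how it was picked. The Igf2 window shown holds 24 CG and the Igf2r window 34, against a median of 7 over 32851 windows. As many CG were found in 20% and 7.73% of the windows. The GC box letters GGGCGG occur on either strand in both, as in 35.7% of all windows, and the TATA letters TATAAA in neither, against 13.6% of all windows. Methylation was not measured, and these matches describe the sequence only.

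Barcodes with 500 or more genes and no more than 10% of UMIs from mitochondrial genes were used as cells, 6729 to 11190 per library, and held 73025302 UMIs in WT25, 84439223 in KO25, 30887121 in WT35 and 38307020 in KO35. The day 35 libraries were shallower per cell, with median UMIs of 3089 (WT) and 4420 (KO) against 6166.5 and 6371 at day 25, and the filter kept 88.3% of the WT35 barcodes against 95.1 to 99.0% of the others. Tmprss3 itself had 18 UMIs in WT25, 7 in KO25, 8 in WT35 and 5 in KO35, too few to check the labels. Library pairs shared 76 to 142 barcodes, 0.763 to 1.58% of either library. Cell types were gated by at least 3 of 8 markers of a type and more than of any other of the 18 types, which placed 56.0 to 72.6% of the kept cells. Of the gated cells 24.6 to 35.1% lay exactly at that limit and 15.9 to 35.5% also held at least 3 markers of a second type. Levels are given as CPM, the UMIs of a gene scaled to a fixed total per library or type, and all intervals are exact 95% intervals that cover counting error only.

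H19 was higher and Igf2 lower in KO than in WT on both days. The level of H19 was 938 CPM (931 to 945) in WT25, 3991 (3977 to 4004) in KO25, 298 (292 to 304) in WT35 and 1146 (1135 to 1156) in KO35. The level of Igf2 was 851 CPM (845 to 858) in WT25, 167 (165 to 170) in KO25, 348 (342 to 355) in WT35 and 34.7 (32.9 to 36.7) in KO35. Each KO library thus stood above its WT counterpart for H19 and below it for Igf2, and the counting intervals did not overlap. As log2 ratios, KO over WT, the values were 2.09 (2.08 to 2.1) and 1.94 (1.91 to 1.98) for H19, which is 4.25-fold and 3.84-fold higher, and -2.35 (-2.37 to -2.32) and -3.32 (-3.41 to -3.24) for Igf2, which is 5.09-fold and 10.02-fold lower. Among the genes measured, Igf2 had the 74th lowest of 15573 log2 ratios at day 25 and the 12th lowest of 14276 at day 35, while H19 had the 124th and the 420th highest.

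Of the 10 genes, 3 differed by at least 2-fold between KO25 and WT25 and 4 between KO35 and WT35. Over all genes with at least 50 UMIs in the 2 libraries compared, 5.57% passed that limit at day 25 (1.89% higher and 3.68% lower) and 10.2% at day 35 (7.82% higher and 2.41% lower). H19 was the gene higher at day 25, joined by Igfbp2 at day 35, and Igf2 and Igf2r were the genes lower on each day. The median log2 ratio of the 10 genes was 0.06 at day 25 and 0.14 at day 35, against -0.03 and 0.23 over all genes. The shift of 0.23 was near 0 with TMM or median-of-ratios scaling, which also changed the share of higher genes among those past 2-fold at day 35 from 76.5% to 61.6% and 60.8%.

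**Figure D1:**
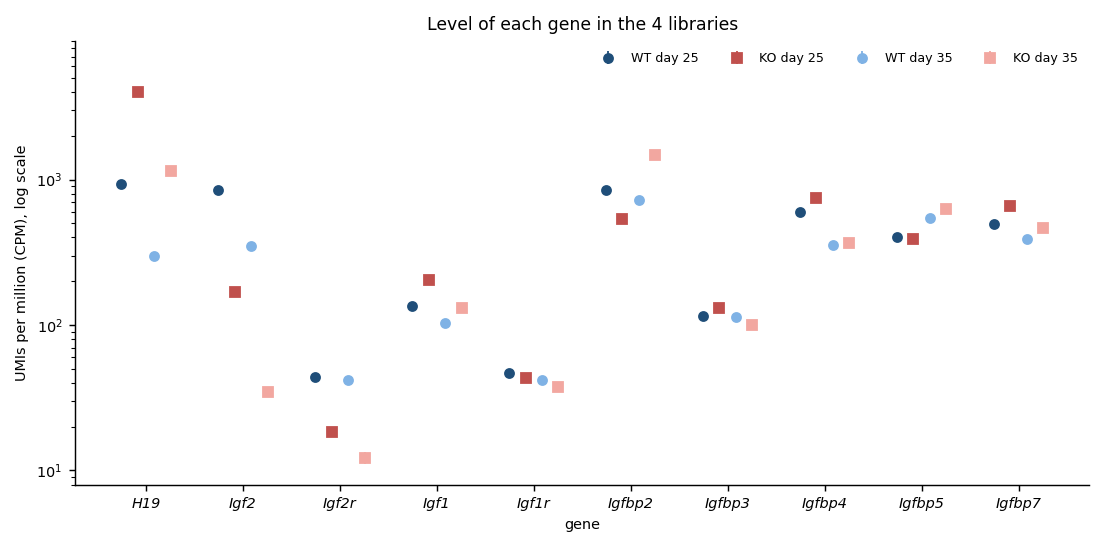
Level of each of the 10 genes in the 4 libraries, in CPM on a log axis, with counting intervals mostly narrower than the symbols. H19 sits higher and Igf2 and Igf2r lower in both KO libraries, and Igfbp2 is lowest in KO25 (532 CPM) and highest in KO35 (1469 CPM).

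The IGF2 receptor gene Igf2r was, with Igf2, at least 2-fold lower in KO on both days. Its level was 44.1 CPM (42.6 to 45.6) in WT25, 18.4 (17.5 to 19.4) in KO25, 41.9 (39.6 to 44.2) in WT35 and 12.1 (11.1 to 13.3) in KO35. The WT libraries were close to each other and each KO library lay well below them. As a log2 ratio this was -1.26 (-1.35 to -1.17) on day 25 and -1.79 (-1.94 to -1.63) on day 35, or 2.39-fold and 3.45-fold lower. Airn, which overlaps Igf2r in antisense (chr17:12741311-12860136, plus strand) and was named after its values were seen, had 17.7 CPM in WT25, 28.7 in KO25, 12.8 in WT35 and 20 in KO35. Its log2 ratios were 0.70 (0.60 to 0.80) and 0.65 (0.47 to 0.83), the opposite direction to Igf2r. The strand setting of the counting is not given in the sources used here, so reads of Igf2r and Airn, and of Igf2 and its antisense gene Igf2os, may be assigned to either partner.

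The remaining ligand and receptor differed less. Igf1, the ligand made by many mesenchymal cells, stood at 135 CPM in WT25, 204 in KO25, 103 in WT35 and 132 in KO35, log2 ratios of 0.60 (0.56 to 0.63) and 0.35 (0.28 to 0.41). The level of Igf1r, the signalling receptor, was 46.8 and 43.5 CPM at day 25 and 41.7 and 37.6 at day 35. Igf1r therefore spanned a narrow range over the 4 libraries, with log2 ratios of -0.11 (-0.17 to -0.04) and -0.15 (-0.26 to -0.04).

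Among the binding proteins, Igfbp2 differed between the lines in opposite directions on the 2 days. It had 843 CPM in WT25 and 532 in KO25, and 722 in WT35 and 1469 in KO35. KO was thus the lower library at day 25 and the higher at day 35, with log2 ratios of -0.66 (-0.68 to -0.65) and 1.03 (1.0 to 1.05). Otic epithelial-like cells, in which Igfbp2 was highest, made up 1.64% of cells in WT25, 1.22% in KO25, 6.32% in WT35 and 14.4% in KO35, and without them the day 35 log2 ratio was 0.37. With TMM or median-of-ratios scaling it was 0.80 and 0.78, under the 2-fold limit.

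The other binding proteins stayed within 2-fold between the lines. Igfbp3, the main carrier of IGFs in serum, had 115 CPM in WT25, 130 in KO25, 113 in WT35 and 101 in KO35. Igfbp4, which inhibits IGF action until it is cleaved by PAPP-A, had 598 and 750 CPM at day 25 and 353 and 366 at day 35. Igfbp5, which binds to extracellular matrix, had 404 and 388 CPM and then 543 and 632. Igfbp7, a matrix-associated protein that binds IGFs weakly, had 494 and 655 CPM and then 392 and 465. The log2 ratios of these 4 genes ranged from -0.17 (Igfbp3, day 35) to 0.41 (Igfbp7, day 25), and those of Igfbp4 and Igfbp5 at day 35 turned from 0.05 and 0.22 to -0.18 and -0.01 with TMM scaling.

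The share of cells with at least 1 UMI followed the levels but also depends on depth. For H19 it was 66.2% in WT25, 98.5% in KO25, 27.8% in WT35 and 69.9% in KO35, and after thinning each cell to 2000 UMIs 44.2% and 91.1%, and 21.2% and 53.0%. For Igf2 it was 80.2% and 22.9% at day 25 and 43.6% and 7.48% at day 35, and thinned 61.3% and 14.7%, and 34.2% and 4.49%. Thinning left out 707 cells of WT35 and none of the other libraries. No gated type here is known to lack H19, so the share that free RNA alone would give was not estimated and the shares are not read as expression. The lowest thinned shares of H19 at day 25 were 18.1% in WT (otic epithelial-like, median 7959 UMIs) and 51.0% in KO (immune-like, median 13749 UMIs). For Igf2 the lowest share before thinning was 30.3% in WT25 (Schwann or satellite glia-like, median 4753 UMIs), against 93.2% of fibroblast-like cells there (median 5883 UMIs).

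Levels differed widely between cell types in every library. In WT25, H19 was highest in fibroblast-like cells (1530 CPM, 1511 to 1549), followed by skeletal muscle-like (1008, 993 to 1022) and mural or smooth muscle-like cells (895, 766 to 1040), and lowest in otic epithelial-like cells (130, 114 to 147). The same 2 types led in the other libraries, with levels of 4950 CPM in fibroblast-like and 4953 in skeletal muscle-like cells of KO25, which did not differ beyond counting error, 232 and 632 in WT35, and 1829 and 5151 in KO35. Igf2 was highest in fibroblast-like cells of every library, at 1485, 331, 671 and 108 CPM in WT25, KO25, WT35 and KO35. Second came skeletal muscle-like cells, at 876, 92.7 and 30.9 CPM, except in WT35, where myogenic progenitor-like cells had 576 CPM. Mesenchymal and muscle types thus led for both transcripts. Fibroblast-like cells alone held 37.1% of the H19 UMIs of WT25, 39.4% of KO25, 13.3% of WT35 and 32.8% of KO35, and 39.7%, 62.8%, 32.8% and 64.1% of the Igf2 UMIs in the same order.

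Within cell types the direction for H19 and Igf2 was shared by all types that had at least 20 cells in both libraries. H19 was at least 2-fold higher in KO in 12 of 12 types at day 25 and 7 of 7 at day 35, against 1.46% and 2.61% of all pairs of a gene and a type with at least 50 UMIs (0.899 to 2.71% and 1.47 to 6.03% over single types). Its log2 ratio ran from 1.59 (1.48 to 1.70) in keratinocyte-like to 3.22 (3.02 to 3.42) in otic epithelial-like cells at day 25, and from 1.39 (0.68 to 2.14) in inner ear fibrocyte-like to 3.08 (2.74 to 3.44) in myogenic progenitor-like cells at day 35. Igf2 was at least 2-fold lower in 12 of 12 and 7 of 7 types. Of the types with at least 50 Igf2 UMIs it was so in 12 of 12 and 4 of 4, against 1.39% and 2.37% of all such pairs. The types share the same 4 libraries and are no replicates of the difference. The sums over whole libraries cannot tell the number of cells of a type apart from RNA per cell, and these values are taken within gated types. Free RNA was not removed, and cells with markers of a second type were kept. The part of library makeup in the values within types was therefore not tested.

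The size of the Igf2 difference varied by type. In fibroblast-like cells, with 1424 (WT35) to 3720 (KO25) cells per library, the log2 ratios of the 2 days were -2.17 (-2.20 to -2.13) and -2.63 (-2.74 to -2.52). Myogenic progenitor-like cells, which carry markers of muscle precursors, had 831 CPM in WT25, 38.9 in KO25, 576 in WT35 and 26.3 in KO35, log2 ratios of -4.42 (-4.62 to -4.22) and -4.45 (-5.30 to -3.71). The myogenic progenitor-like cells of KO thus held little Igf2 while their H19 stood at 2451 and 1046 CPM, against 513 and 124 in WT. The most negative ratios, -5.33 in oligodendrocyte lineage-like cells at day 25 and -6.85 in keratinocyte-like cells at day 35, rested on 3 and 1 UMIs in KO. At day 35 the interval lay below 0 in 5 of the 7 types, and in the remaining types, hair cell-like and inner ear fibrocyte-like, KO had 1 and 5 Igf2 UMIs.

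Igf2r was lower in KO in 12 of 12 types at day 25, and 5 of the 12 intervals lay below 0. Nearest to 0 were astrocyte-like cells (-0.44), whose ratio was 0.20 without cells holding at least 3 markers of a second type. At day 35 it was lower in 6 of 7 types, with 5 intervals below 0. Of the types with at least 50 Igf2r UMIs, 3 of 7 at day 25 and 3 of 4 at day 35 were at least 2-fold lower. Of all pairs of a gene and a type with at least 50 UMIs, 1.39% and 2.37% were that much lower. Fibroblast-like cells had 67.1 CPM in WT25, 27.6 in KO25, 61.4 in WT35 and 19.7 in KO35, log2 ratios of -1.28 (-1.42 to -1.15) and -1.64 (-1.93 to -1.36). Skeletal muscle-like cells had 41.0 and 13.5 CPM and then 45.9 and 13.6. In both of these well-filled types the WT levels were alike across days and KO stood at less than 0.5 of them. The exception at day 35, inner ear fibrocyte-like cells, rested on 4 UMIs in KO and 3 in WT.

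**Figure D2:**
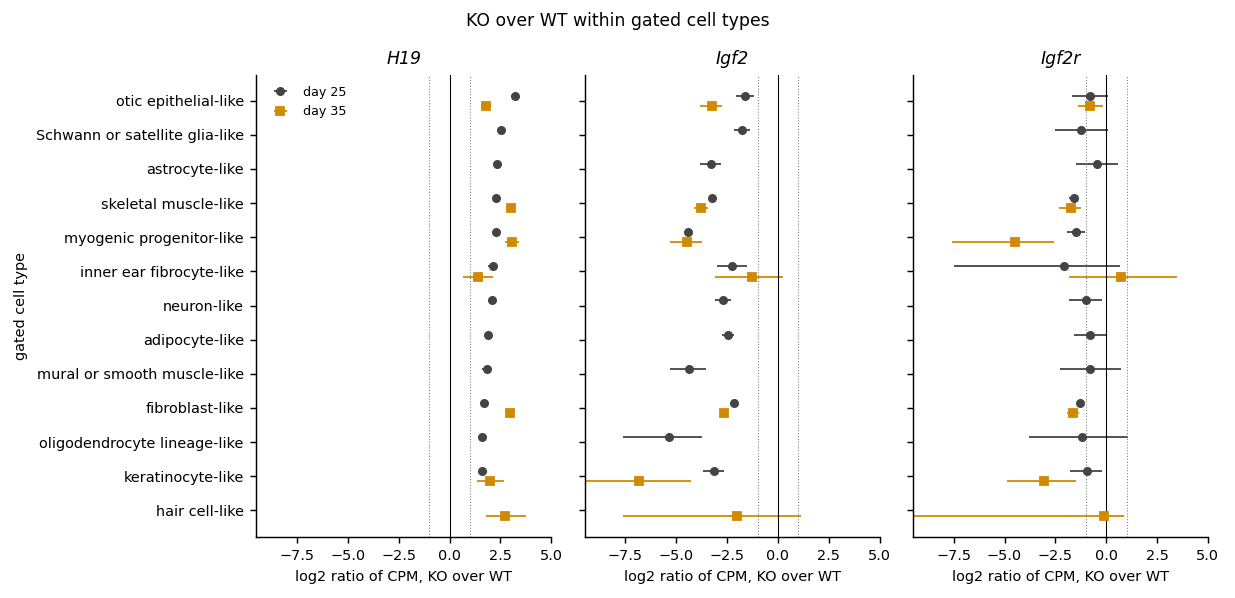
Log2 ratio of CPM, KO over WT, for H19, Igf2 and Igf2r in each gated cell type with at least 20 cells in both libraries of a day, with 95% counting intervals (clipped at the left edge), a solid line at 0 and dotted lines at 2-fold. H19 lies above 0 and Igf2 below 0 in all 12 types at day 25 and all 7 at day 35; the hair cell-like Igf2r point is drawn at the floor of 3 counts, since KO had 0 UMIs and WT 4.

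Otic epithelial-like cells, the lineage that gives rise to hair cells and supporting cells, numbered 160 in WT25, 136 in KO25, 516 in WT35 and 968 in KO35. Their H19 level was 130 CPM in WT25, 1205 in KO25, 55.4 in WT35 and 190 in KO35, the lowest of the gated types in both WT libraries. Their Igf2 level was 115 and 37.4 CPM at day 25 and 52.6 and 5.48 at day 35. H19 was thus higher in KO, with log2 ratios of 3.22 and 1.78 (1.54 to 2.03), and Igf2 lower, with ratios of -1.62 (-2.08 to -1.19) and -3.26 (-3.83 to -2.73). Igfbp2 reached its highest level here in all 4 libraries, 5860, 4991, 2437 and 5132 CPM in WT25, KO25, WT35 and KO35. Igf1 was higher in KO otic epithelial-like cells on both days, at 154 against 56.2 CPM and 123 against 59.3, and Igfbp5 at day 35, at 1247 against 555 CPM, a log2 ratio of 1.17 (1.09 to 1.25). When cells with at least 3 markers of a second type were left out, the Igf2 ratio of otic epithelial-like cells was -0.58 at day 25 and -4.27 at day 35.

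Hair cell-like cells passed the minimum of 20 cells only at day 35, with 39 cells in WT and 27 in KO, against 13 and 9 at day 25. They held 12 H19 UMIs in WT and 64 in KO, 81.9 (42.3 to 143) and 534 (412 to 682) CPM, and 5 and 1 Igf2 UMIs. Igfbp2 had 31 and 64 UMIs, 212 and 534 CPM, a log2 ratio of 1.34 (0.70 to 2.00). Igf1r, at 54.6 and 58.4 CPM, rested on 8 and 7 UMIs. So few UMIs leave the Igf2 ratio of -2.03 (-7.59 to 1.13) undetermined.

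The balance between H19 and Igf2 was summarised as the share of Igf2 among the UMIs of both genes. Over all kept cells it was 47.6% (47.3 to 47.9) in WT25, 4.02% (3.96 to 4.09) in KO25, 53.9% (53.2 to 54.6) in WT35 and 2.94% (2.79 to 3.10) in KO35. Among cells with a UMI of either gene, 51.2% of WT cells held more Igf2 than H19 UMIs at day 25 and 59.9% at day 35, against 1.38% and 3.76% of KO cells. Neither transcript was seen in 8.74% of cells of WT25, 1.26% of KO25, 42.8% of WT35 and 28.5% of KO35. In fibroblast-like cells the Igf2 share was 49.2% in WT25, 6.27% in KO25, 74.3% in WT35 and 5.59% in KO35, and in otic epithelial-like cells 47.1% and 3.01%, and 48.7% and 2.80%. How well the RNA of each gene was captured was not measured, so these shares compare libraries and do not rank the 2 genes.

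Within fibroblast-like cells, H19 was spread over cells unevenly in WT. At day 25, 30.0% of WT cells had no H19 UMI, 24.9% lay above 0 and under 500 CPM, 14.0% at 500 to under 2000 and 31.1% at 2000 CPM or more. Those limits were set after the values were seen. The KO cells of day 25 lay mostly at the upper end, with 80.3% at 2000 CPM or more and 0.457% without a UMI. At day 35 the shares without a UMI were 71.6% in WT and 19.3% in KO, and those at 2000 CPM or more 3.37% and 32.2%. On the log2 scale the fullest bin was 11.5 to 12 in WT25 (9.06% of cells) and 12 to 12.5 in KO25 (18.5%). The cells under 500 CPM in WT25 had a median of 6405 UMIs, at which 1 UMI equals 156 CPM, so their level rests on few UMIs.

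**Figure D3:**
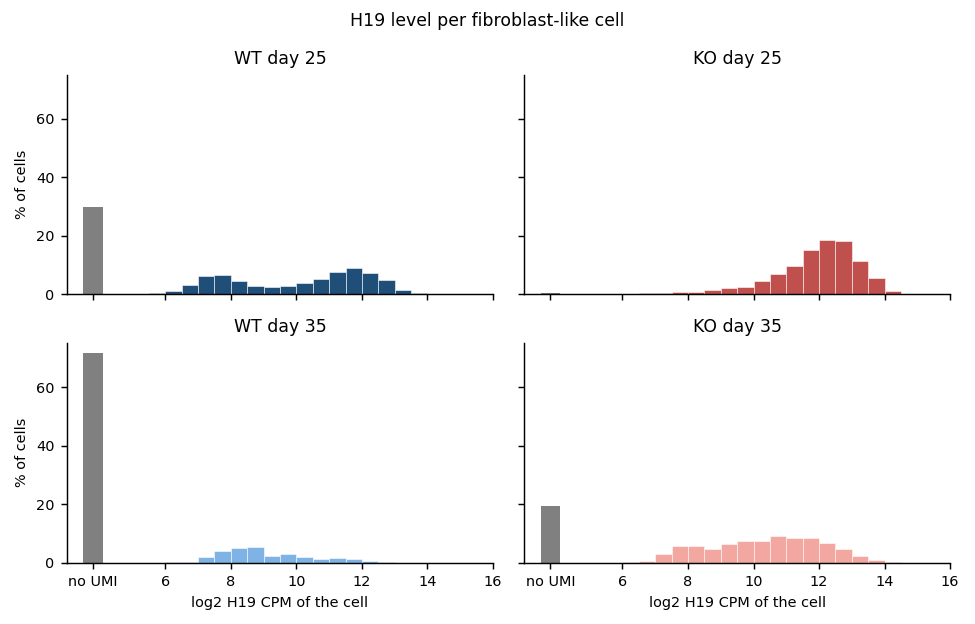
Share of fibroblast-like cells by their log2 H19 level in CPM, in bins of width 0.5, with cells that had no H19 UMI as a grey bar at the left, for each of the 4 libraries. WT25 has 30.0% of cells without a UMI and 31.1% at 2000 CPM or more, and KO25 has 80.3% at 2000 CPM or more.

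Fibroblast-like cells were also compared between the lines within ranges of H19 level. Among cells at 2000 CPM of H19 or more, Igf2 was 1304 CPM in WT25, 323 in KO25, 872 in WT35 and 95.6 in KO35, with H19 itself left out of the totals. The log2 ratios were -2.01 (-2.06 to -1.96) and -3.19 (-3.50 to -2.87), against -2.17 and -2.63 over all fibroblast-like cells. H19 was not equal in this open group, with a median of 3871 CPM in WT25, 5342 in KO25, 2982 in WT35 and 3900 in KO35. In the bounded range of 500 to under 2000 CPM, Igf2 was 925 CPM in WT25, 361 in KO25, 618 in WT35 and 161 in KO35, log2 ratios of -1.36 (-1.45 to -1.27) and -1.94 (-2.17 to -1.71). Among WT cells alone, Igf2 had no single direction with H19: the level was 1736 CPM in cells without H19 and 1304 in those at 2000 CPM or more of WT25, and 687 and 872 CPM in WT35. Igf2r in the cells of high H19 was 68.6 and 30.0 CPM at day 25, a log2 ratio of -1.20 (-1.39 to -1.0), and 64.1 and 33.4 at day 35, with an interval of -1.89 to 0.17.

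Igfbp2 was lower in KO fibroblast-like cells with each step up in H19 level, and in WT it was lowest in the cells of the highest H19 level. At day 35 it was 1919 CPM in KO cells without H19, 1079 under 500, 487 at 500 to under 2000 and 296 at 2000 CPM or more, and at day 25 it was 1153, 498 and 273 in the last 3 of these. WT cells had 553, 527, 580 and 340 CPM over the same groups in WT25, and 483, 551, 243 and 199 in WT35. KO exceeded WT by a log2 ratio of 1.99 (1.90 to 2.08) in cells without H19 at day 35 and by 0.58 (0.06 to 1.14) in cells of the highest H19 level. Igfbp5 in KO35 ran from 1290 CPM in cells without H19 to 708 in the highest group. These groups may also differ in cell subtype, which was not tested.

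**Figure D4:**
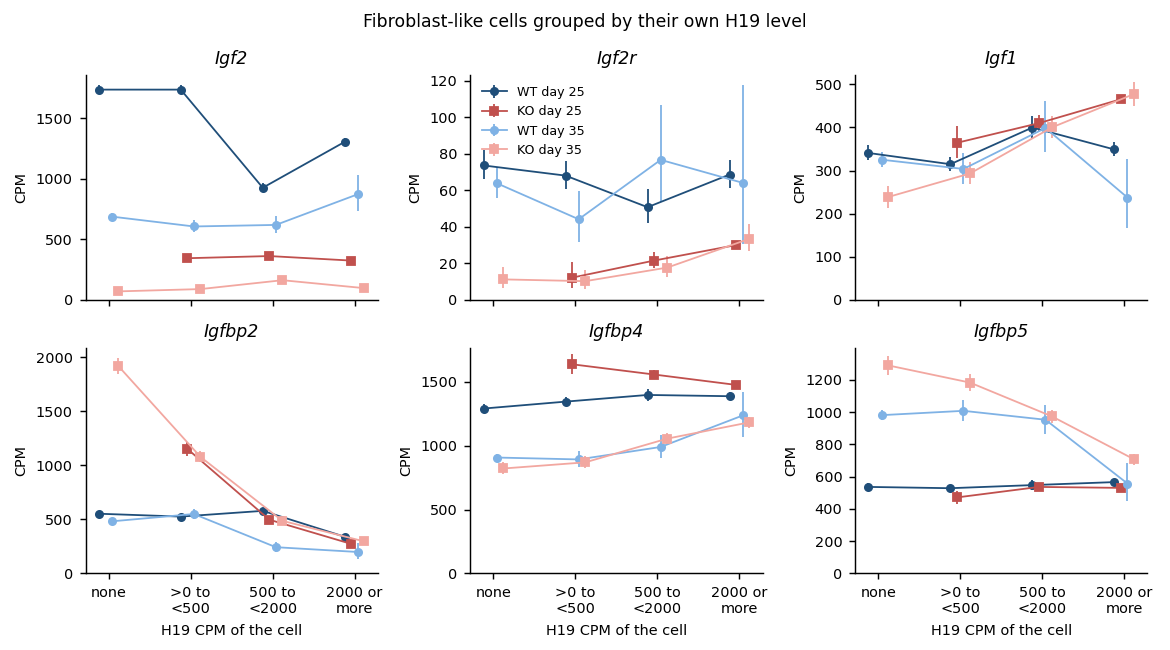
Level of 6 IGF genes in fibroblast-like cells grouped by the H19 level of the cell, in CPM with H19 left out of the total and with 95% counting intervals, for the 4 libraries; groups of fewer than 20 cells are not drawn. Igf2 lies lower in KO in every group drawn for both lines of a day, and Igfbp2 in KO35 runs from 1919 CPM without H19 to 296 at 2000 CPM or more.

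The remaining genes each had their own order over cell types. Igf1 was highest in fibroblast-like cells of every library, at 344, 449, 325 and 371 CPM, and the 49 immune-like cells of KO25 had 439 (391 to 492), within counting error of the fibroblast-like level there. Igf1r was highest in otic epithelial-like cells at day 25, at 69.5 CPM in WT and 96.6 in KO, though in WT the neuron-like (64.7, 56.1 to 74.2) and mural or smooth muscle-like levels (68.1, 36.2 to 116) were not apart from it. It was lowest in adipocyte-like cells at day 25, at 14.6 and 13.4 CPM, and in the 313 pluripotent-like cells of KO35, at 13.3. The ligand and its receptor thus had different leading types.

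After otic epithelial-like cells, Igfbp2 was highest in inner ear fibrocyte-like cells, at 1687, 2252, 1053 and 1064 CPM in WT25, KO25, WT35 and KO35. Within types Igfbp2 was higher in KO in 7 of 7 types at day 35, from 0.02 to 1.34 on the log2 scale, with 5 intervals above 0, and lower in 9 of 12 at day 25. At least 2-fold higher were 2 of 7 types at day 35, and at least 2-fold lower 2 of 12 at day 25. Of all pairs of a gene and a type with at least 50 UMIs, 2.61% and 1.39% were so. The median log2 ratio of all genes in the whole libraries at day 35 was itself 0.23. Igfbp4 and Igfbp7 were led by fibroblast-like cells in every library, at 1349, 1489, 922 and 1011 CPM for Igfbp4 and 1151, 1414, 1230 and 1377 for Igfbp7. Both were low in otic epithelial-like cells, where Igfbp2 was highest, at 95.4, 125, 39.1 and 46.9 CPM for Igfbp4 and 41.3, 79.6, 30.9 and 48.2 for Igfbp7. Inner ear fibrocyte-like cells were second for Igfbp4, as for Igfbp2, at 1125, 1141, 708 and 882 CPM. Igfbp3 stood at 215, 182, 187 and 353 CPM in myogenic progenitor-like and at 166, 181, 267 and 212 in fibroblast-like cells. Igfbp5 was high in otic epithelial-like cells (1022, 1324, 555 and 1247 CPM) and in fibroblast-like cells (544, 527, 971 and 992).

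**Figure D5:**
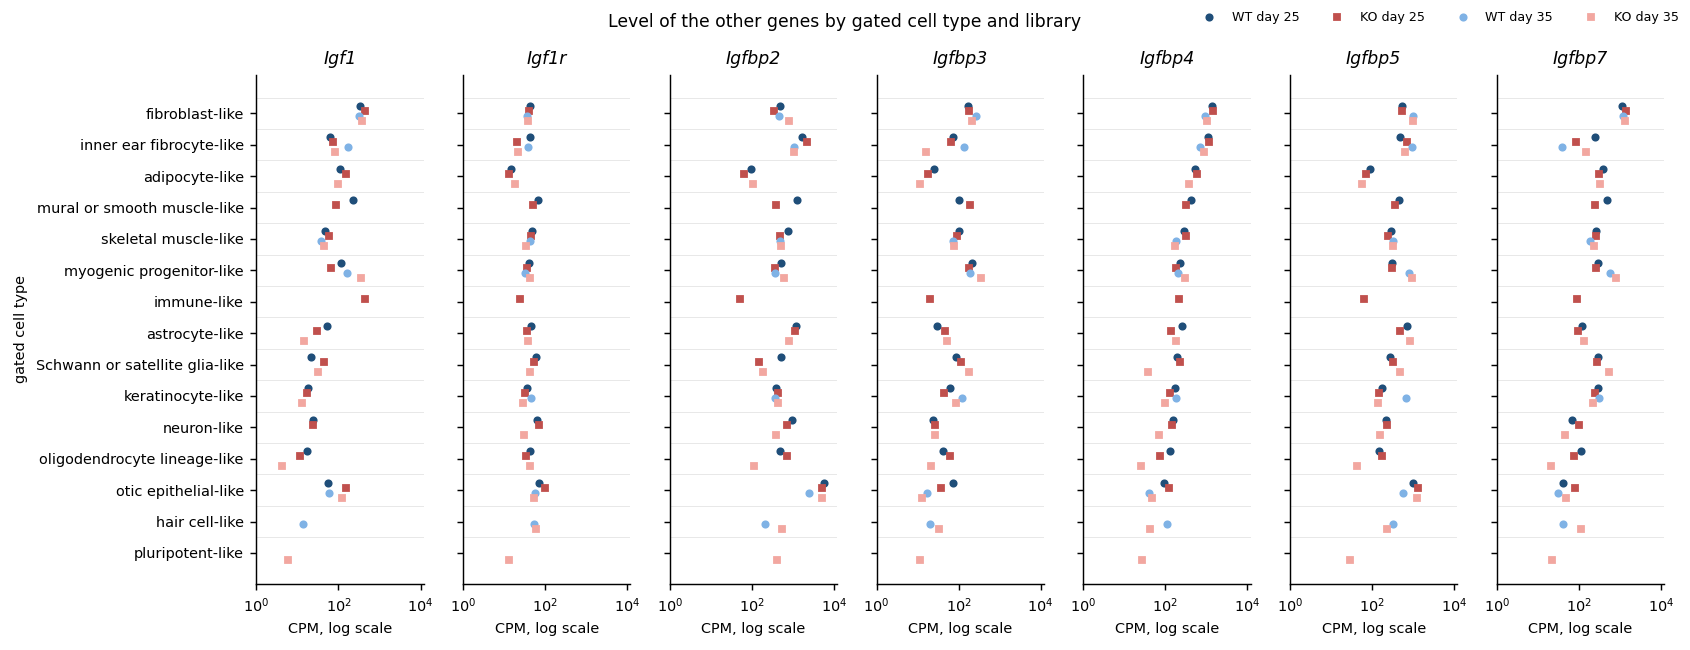
Level in CPM, on a log axis, of the 7 genes other than H19, Igf2 and Igf2r in each gated cell type with at least 20 cells, for the 4 libraries; types with 0 UMIs are not drawn. Igfbp2 is highest in otic epithelial-like cells (2437 to 5860 CPM), where Igfbp7 is low (30.9 to 79.6 CPM), and Igf1, Igfbp4 and Igfbp7 are highest in fibroblast-like cells.

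Between day 25 and day 35, 2 of the 10 genes differed at least 2-fold in WT and 4 in KO, against 20% of all genes in WT (6.96% higher and 13.1% lower) and 18.5% in KO (11.3% higher and 7.28% lower). These comparisons share their libraries with those of KO over WT. H19 and Igf2 were lower at day 35 in both lines, by log2 ratios of -1.65 and -1.29 in WT and -1.80 and -2.27 in KO. In KO, Igfbp4 (-1.04) was also lower and Igfbp2 (1.47) higher, and without otic epithelial-like cells these were -0.82 and 0.65. Igf2r was nearly level in WT (-0.07, -0.17 to 0.02) and lower in KO (-0.60, -0.75 to -0.45). Among higher and lower genes past 2-fold the share of higher ones was 34.8% in WT and 60.7% in KO, and 42.4% and 49.8% with TMM scaling.

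Within types, H19 was lower at day 35 in 6 of 6 types of WT, 5 of them by at least 2-fold, and in 10 of 11 of KO, 9 of them by at least 2-fold. Of all pairs of a gene and a type with at least 50 UMIs, 9.08% in WT and 7.09% in KO were that much lower. Fibroblast-like cells of WT had the most negative ratio, -2.72, and skeletal muscle-like cells the nearest to 0, -0.67. Skeletal muscle-like cells of KO were the exception, at 4953 CPM at day 25 and 5151 at day 35. Igf2 was lower at day 35 in 6 of 6 types of WT, at least 2-fold in 4 and with 5 intervals below 0, and in 11 of 11 of KO, at least 2-fold in 8 and with 8 intervals below 0. Of the types with at least 50 Igf2 UMIs it was at least 2-fold lower in 4 of 6 in WT and 5 of 7 in KO.

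Of 33 other genes of IGF and insulin signalling with enough UMIs, none was at least 2-fold higher in KO25 and 2 were lower, with a median log2 ratio of -0.01, against 1.89% higher and 3.68% lower over all genes. These were Grb10, an imprinted adaptor that dampens insulin and IGF1 receptor signalling, at 37.7 CPM in WT and 1.40 in KO (-4.75, -5.03 to -4.49), and the binding protein-like gene Igfbpl1 (-1.49, -1.67 to -1.31). At day 35, 3 were higher and 1 lower, against 7.82% and 2.41% of all genes, with a median of 0.11 against 0.23. Grb10 was again the lower gene, at 7.90 and 0.627 CPM (-3.66, -4.33 to -3.05), and the higher ones were the adaptors Grb14 (1.20) and Gab1 (1.05) and Igfbpl1, with 104 UMIs in KO and 2 in WT. Within the list Grb10 had the largest difference on day 25. Of 13 proteases of IGF binding proteins and their inhibitors, Adam28 (-1.10) was lower at day 25 and none differed by 2-fold at day 35 among 12 measured.

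Of the genes around H19 and Igf2 in the distal chromosome 7 imprinted region, 4 of 16 were at least 2-fold lower in KO25 and none higher, with a median of -0.13. Over all genes 3.68% were that much lower and 1.89% higher at day 25, and 2.41% and 7.82% at day 35. Cdkn1c, a maternally expressed inhibitor of cell division, had 578 CPM in WT and 42.2 in KO (-3.78, -3.83 to -3.73), and Igf2os, antisense to Igf2, had 302 and 27 UMIs (-3.69, -4.32 to -3.12). Th (-1.23) and Slc22a18 (-1.08) were the other 2, at under 2 CPM. At day 35, Cdkn1c (254 and 39.8 CPM, -2.67, -2.75 to -2.60) and the muscle gene Tnnt3 (-1.63) were lower and Ascl2 (1.15) higher of 13 measured. Skeletal muscle-like cells made up 26.9% of the cells in WT35 and 5.84% in KO35, and their part in the Tnnt3 value was not tested.

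Of 16 genes of an imprinted gene network, 4 were at least 2-fold lower and 1 higher in KO25, and 5 lower and 1 higher of 15 at day 35. The shares over all genes were 3.68% lower and 1.89% higher, and 2.41% and 7.82%. The lower genes with the largest ratios were Grb10 and Cdkn1c, given above, and the zinc finger gene Zim1 (10.1 and 0.616 CPM, -4.04, at day 25, and 204 and 3 UMIs at day 35), with Asb4 (-1.10) at day 25. Mest, a paternally expressed gene, was the higher one on each day and is named here at day 35 (115 and 276 CPM, 1.26, 1.21 to 1.32). Mest was the single higher gene, and the median of the list was 0.06 at day 25 and -0.15 at day 35.

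Of 18 known regulators of H19 and Igf2, Dppa3 was lower at day 25, with 64 UMIs in WT25 against 2 in KO25, and none was higher. At day 35, 8 of 19 were at least 2-fold higher in KO and none lower, with a median of 0.92, against 7.82% higher, 2.41% lower and a median of 0.23 over all genes. Dppa3 and Lin28a had 523 and 451 UMIs in KO35 and 0 in WT35. Their log2 ratios were 7.14 and 6.92 with WT35 set at 3 counts, and depend on that setting. The DNA methyltransferase gene Dnmt3b (5.68) and Igf2bp1 (2.91), an RNA-binding protein of Igf2 mRNA, followed. Dppa3, Lin28a and Dnmt3b are known from pluripotent cells. Pluripotent-like cells numbered 11 in WT25, 2 in KO25, 0 in WT35 and 313 in KO35. Without them the day 35 log2 ratios were 2.13 for H19, -3.13 for Igf2 and -1.73 for Igf2r, and their part in the values of the regulators was not tested.

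The genes most alike to each member were found over 36 pairs of gated type and library with at least 50 cells, as Pearson's r of log2(CPM + 10) among 10538 genes. All 36 pairs come from the same 4 libraries, so these values are descriptions. Pairs of WT and KO were pooled, so r mixes differences between the lines with the order over cell types. H19 was most like Snhg6 (0.75), Peg3 (0.72) and Srp68 (0.70), and Igf2 most like Cdkn1c (0.79), Dlk1 (0.69) and Grb10 (0.68). Igf2r followed Il6 (0.70), Reg3g (0.69) and Osr2 (0.66). Among the members themselves Igf2 and Igf2r, both lower in KO, had an r of 0.83. H19 and Igf2, which differed between the lines in opposite directions, had -0.04. The order over types within a line was not separated from these values.

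Among the remaining members, Igf1 was most like Pcolce (0.87), Sec31a (0.86) and Fcgrt (0.85), and Igf1r like Apbb2 (0.82), Oaz2 (0.81) and Ogt (0.78). Igfbp2 was closest to Enah (0.90), B4galt4 (0.87) and Enho (0.86), and Igfbp3 to Phldb2 (0.85), Sec11a (0.83) and Emp3 (0.82). Igfbp4 followed Twist1 (0.91), Nrp1 (0.91) and Prrx1 (0.90), Igfbp5 followed Timp2 (0.90), Prrx2 (0.81) and Selm (0.81), and Igfbp7 followed Bgn (0.88), Ppic (0.87) and Col5a2 (0.84). Igfbp4 and Igfbp7 were alike (0.75), as were Igf1r and Igfbp2 (0.69), and Igfbp2 and Igfbp7 ran opposite (-0.52).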

How the data were processed

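Droplet single-cell RNA sequencing libraries (10x v2 kit) of WT and KO organoids at day 25 and day 35 were analysed, 1 per group. The authors deposited raw UMI counts, 1 matrix of genes by barcodes per library. Tools in the submitters' processing notes are Seurat 2.3.1, Cell Ranger 2.1.0, R 3.5.1 and bcl2fastq, with GRCm38 (mm10) as build. The sources used here do not give the counting settings, strand included. Samples were grouped by the genotype and day in the labels.

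Cells needed 500 genes and no more than 10% of UMIs from mitochondrial genes (9768 in WT25, 11190 in KO25, 8166 in WT35 and 6729 in KO35). Counts were summed per library, and per gated type of at least 20 cells, and scaled to CPM. Levels have exact Poisson intervals, shares exact Clopper-Pearson intervals and ratios conditional binomial intervals, at 95%. They cover counting error only, and with 1 library per group there is no test and no estimate of replicate spread. A ratio needed 50 UMIs over the 2 libraries in comparisons of all genes, and a count of 0 was set to 3. No doublet caller was run. As alternatives, the 779, 1013, 604 and 381 cells of most UMIs (0.8% per 1000 barcodes), or cells with at least 3 markers of a second type, were left out. Named besides the 10 genes were, per list and comparison, up to 4 genes past 2-fold with the largest log2 ratios, and for each member the 3 most similar genes with at least 1000 UMIs. The members, markers, lists and tests were chosen with earlier results of these data known. Intervals and ratios were tested on simulated counts. Gene positions came from GENCODE M21, in which 27645 of 27998 identifiers were found, and sequences from RefSeq. Python 3.11.15, numpy 2.4.6, scipy 1.17.1, pandas 2.3.3, matplotlib 3.10.9, R 4.3.3, edgeR 4.0.16 (TMM factors only) and DESeq2 1.42.0 (size factors only) were used.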

Additional observations from a re-analysis of the deposited data

Results flagged for a closer look

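Igfbp2 stood lower in KO than in WT at day 25 and higher at day 35, with log2 ratios of -0.66 and 1.03, which differ by 1.69. The same 4 values give a difference of 1.69 between the change from day 25 to day 35 in KO (1.47) and in WT (-0.22). Igfbp3 had ratios of 0.18 and -0.17, a difference of -0.35, and Igfbp5 -0.06 and 0.22, a difference of 0.28. Each is listed because the direction was opposite on the 2 days. With 1 library per group these differences were not tested, and the signs of Igfbp3 and Igfbp5 turned under some of the alternatives below.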

How the results depend on the processing

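No paired analysis was possible because each group has 1 library, and for the same reason no library could be left out within a group. Over 11 other settings for whole libraries (cell filters, scalings, UMI minimums, means over cells, cells of most UMIs left out and, chosen after seeing the data, pluripotent-like or otic epithelial-like cells left out), the log2 ratio of KO over WT ranged from 2.03 to 2.13 at day 25 and from 1.70 to 2.31 at day 35 for H19, from -2.38 to -2.31 and from -3.57 to -3.07 for Igf2, and from -1.32 to -1.22 and from -2.03 to -1.73 for Igf2r. The UMI minimums change only which genes are counted and cannot move these ratios. For Igfbp2 at day 35 the log2 ratio of KO over WT ranged from 0.37 to 1.17. It was under 1 with no filter on cells (0.97), a stricter filter (0.95), TMM (0.80) or median-of-ratios factors (0.78), and UMIs without mitochondrial and ribosomal protein genes (0.996). The sign turned within small ranges for Igfbp5 (-0.07 to 0.01 at day 25, -0.10 to 0.42 at day 35), Igfbp3 (-0.41 to 0.01) and Igfbp4 (-0.19 to 0.24) at day 35, and in WT over days for Igf2r (-0.18 to 0.06) and Igfbp3 (-0.15 to 0.29). Over days in KO, 2 of the 10 genes, not 4, differed at least 2-fold without otic epithelial-like cells, and 3 with the stricter filter, means over cells, the cells of most UMIs left out or pluripotent-like cells left out, where Igfbp4 was -0.95, -0.80, -0.90 and -0.85. With a gate of at least 2 markers, H19 and Igf2 differed at least 2-fold in 11 of 11 types at day 35, not 7 of 7. Igf2 was at least 2-fold lower in 11 of 12 types at day 25 and 6 of 7 at day 35 both without cells holding 3 markers of a second type and with means over cells. The ratios nearest to 0 without cells of a second type were -0.58 at day 25 (otic epithelial-like) and -0.12 at day 35 (hair cell-like, few Igf2 UMIs). With means over cells the ratio nearest to 0 was -0.94 on each day. With no filter on cells Igf2 was at least 2-fold lower in 7 of 8 types at day 35 (nearest to 0, -0.72). All 80 shares of cells with a UMI moved beyond their counting interval on thinning, to 2000 or 1000 UMIs. Single types with under 20 UMIs limit the Igf2r and Igf2 ratios most.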

Other observations

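Of 16 genes of the imprinted gene network, 9 were at least 2-fold lower at day 35 than at day 25 in WT and 10 in KO, none was higher, and the medians were -1.10 and -1.17, against -0.14 and 0.14 over all genes. Over all genes 6.96% were that much higher and 13.1% lower in WT, and 11.3% and 7.28% in KO, which are also the shares to set beside the counts that follow. Mest (-2.41), Grb10 (-2.25), Dlk1 (-2.20) and Meg3 (-2.09) had the most negative ratios in WT, and Dlk1 (-3.06), Zim1 (-2.98), Plagl1 (-2.48) and Meg3 (-2.41) in KO. Dlk1 had 2206 CPM in WT25, 1884 in KO25, 482 in WT35 and 226 in KO35. Cell composition differed between the days as well, and its part in these values was not tested.

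Of the regulators of H19 and Igf2, 6 of 18 were at least 2-fold lower at day 35 in WT and none higher, and in KO 5 of 20 were higher and 1 lower, and the difference between the lines was not tested. Among 33 IGF and insulin signalling genes, 4 were higher and 3 lower in WT, and 4 higher and 2 lower in KO. Socs2, an inhibitor of growth hormone signalling, had 20.8 CPM at day 25 and 86.4 at day 35 in KO (log2 ratio 2.05), and Grb14 had 8.22 and 48.8 (2.57). Of 13 binding protein proteases and inhibitors, 1 was lower in WT, and in KO 2 were higher and 1 lower. In the distal chromosome 7 region 4 of 16 were higher and 4 lower in WT, and 4 of 14 higher and 1 lower in KO.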
